A study of Rattus norvegicus with 6 samples.

Results

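Tumors that MUC1-CD cells formed in mice were set against the same cells in culture, on 4 of the 6 arrays of the study: 2 arrays titled as MUC1-CD cells grown in vivo and 2 titled as MUC1-CD cells grown in vitro, all 4 chosen by title alone. The cells were 3Y1, a line of rat embryonic fibroblasts, carrying a stably integrated vector for the cytoplasmic domain of MUC1, so both groups carried the same transgene. Culture was in DMEM with heat-inactivated fetal bovine serum, penicillin, streptomycin and L-glutamine. For tumors, cells had been placed under the skin of the hindlimbs of female athymic mice, which lack a thymus but keep macrophages, granulocytes, vessels, muscle and stroma. Nothing is given in the sources used here on the dose of cells behind these tumors, the age of the mice, whether the transfected line was 1 clone or whether tumors were pooled. Tumors were snap-frozen, soaked in an RNA preservative, homogenized and purified on columns and with TRIzol, and cultured cells with TRIzol, so RNA preparation and growth setting cannot be told apart. The 2 arrays of a group are labelled biological replicates. Nothing says that they came from separate cultures or animals, and p-values measure only the spread between these arrays.

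A tumor of rat cells in a mouse yields a mixture of rat RNA from the injected cells and mouse RNA from vessels, immune cells, muscle and connective tissue of the host. The array, an Affymetrix Rat Genome 230 2.0, carries probes for rat transcripts, and mouse transcripts with matching stretches can bind them. The comparison was therefore divided by level in culture, where no mouse cell was present: a gene already expressed there can be made by the rat cells, whereas a gene near background there may be read from rat or mouse RNA. These arrays cannot tell apart rat from mouse RNA, or fewer cells of a type from less RNA per cell.

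The signal of a probe set is its MAS5 value, a brightness in arbitrary units with 1 trimmed mean for all arrays. Signals of different probe sets do not measure amount on a common scale. Sums over a list add them all the same, are ruled by its brightest probe sets, and serve only to set arrays side by side. Changes are tumors minus culture in log2(signal + 16), given with the standard error (SE) of limma, and a scale with this pseudocount understates the change of weak probe sets. A probe set or gene was called when the limma p-value adjusted by Benjamini-Hochberg over all 31042 non-control probe sets was under 0.05. Folds, given for expressed genes alone, are ratios of mean signals. Where leaving out an array moved the count of a gene list by over 1.5 times, the left-out counts follow it, without culture replicate 1, culture replicate 2, tumor replicate 1 and tumor replicate 2 in that order. Across probe sets, which are no independent replicates, both arrays of a group correlated at r = 0.987 in culture and 0.980 in tumors. The 3′ to 5′ ratio of Gapdh was 1.11 to 1.18 and that of beta-actin 2.97 to 3.37 over the 4 arrays. The rat Muc1 probe set gave 43.5 and 26.7 in culture and 61.3 and 51.7 in tumors (limma adjusted p = 0.306). The sources used here do not state whether it can detect the transgene.

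Tumors differed from culture in 7243 of 31042 probe sets (23.3%), 4138 higher (13.3%) and 3105 lower (10%), and 11129 had an unadjusted p under 0.05. Collapsed to 14217 genes, each read by the probe set with the highest mean signal, 2412 rose (17% of all genes) and 1931 fell (13.6%), and the median change of all genes was 0.11. The number of called probe sets was 3959 without culture replicate 1, 4071 without culture replicate 2, 4393 without tumor replicate 1 and 4962 without tumor replicate 2. The balance of rises and falls moved with the scaling: 57.1% of calls were higher as deposited, 48.7% after quantile normalization and 27.2% after each array was divided by its median. The median signal of an array was 103.9 and 107.2 in culture against 130.4 and 124.5 in tumors, while the median change of all probe sets was 0.13 as deposited and -0.07 after that division.

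Genes expressed in culture fell more often than they rose, and genes near background almost never fell. Expressed genes were those at or above the 60th percentile of probe sets on both culture arrays (signals of 207 and 210), and near-background genes lay below the 40th percentile on both (51.1 and 52.8). Of 7634 expressed genes, 1403 rose (18.4%) and 1831 fell (24%), with a median of -0.03. Of 4162 near-background genes, 605 rose (14.5%) and 19 fell (0.457%), with a median of 0.39. Of the 2421 genes between both limits, 404 rose (16.7%) and 81 fell (3.35%). Counts of the gene lists below are to be read beside these shares, or beside the 17% and 13.6% of all genes. A gene near the floor of the array has little room to fall, and the class was set by the culture arrays that also enter the change, so these counts are a description. Without culture replicate 1, culture replicate 2, tumor replicate 1 and tumor replicate 2, in that order, 841, 812, 796 and 847 expressed genes rose, 1142, 1191, 1277 and 1389 fell, and 307, 314, 425 and 511 near-background genes rose. With the class taken from 1 culture array and the change from the other, 324 or 331 near-background genes rose and 0 or 3 fell. Under division by the median, 478 expressed genes rose and 3457 fell, with a median of -0.30, and the near-background median was 0.27.

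**Figure D1:**
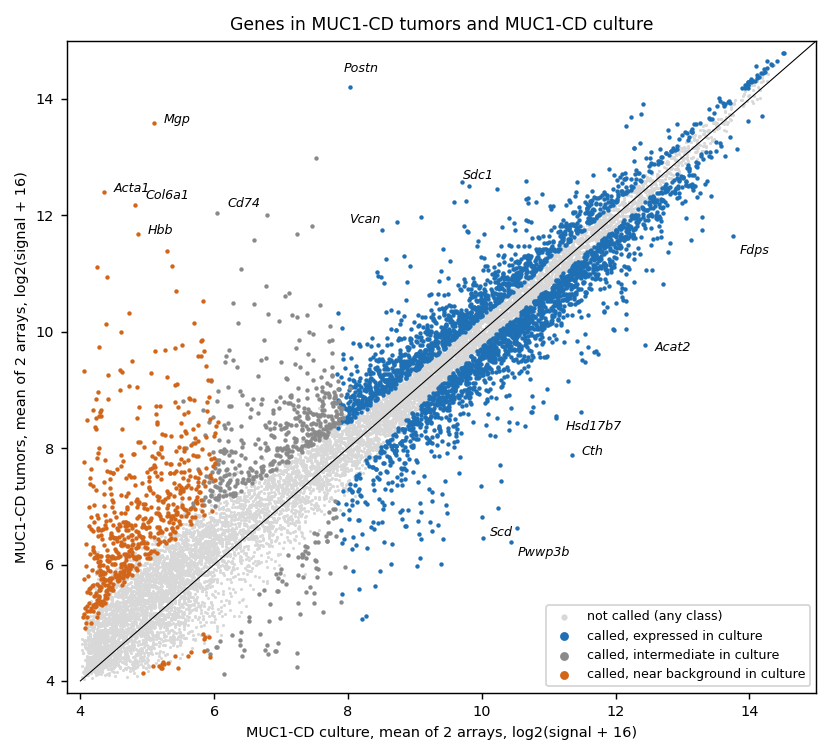
Mean log2(signal + 16) of 2 tumor arrays (vertical axis) against 2 culture arrays (horizontal axis) for 14217 genes, with called genes coloured by their level in culture and the line of equality in black. Of 52 rises of at least 4 on the log2 scale, 42 lie at the left among genes near background in culture, and the falls at the right include Scd, Cth, Acat2, Hsd17b7 and Fdps.

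The size of the changes separated both classes further. Rises of at least 1 on the log2 scale numbered 995, of which 595 were near background and 139 expressed in culture. At 4 or more there were 52 rises, of which 42 were near background, 9 intermediate and 1 expressed, Postn. Falls of at least 1 numbered 356, of which 273 were of expressed genes. The median change of the called expressed genes was 0.51 for rises and -0.54 for falls, against 1.75 for near-background rises. Those 605 near-background genes went from a median signal of 11.35 in culture to 89.85 in tumors, and 90 of them reached the 60th percentile on both tumor arrays. For 448 of them a single probe set named the gene.

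The 10 largest rises among genes expressed in culture were of Postn, Vcan, Serpinf1, Agtr2, Nid2, Plaat3, Sdc1, Col15a1, Egr2 and Cd59b. Periostin (Postn), a matricellular protein of remodelling connective tissue, had signals of 215 and 276 in culture and 18360 and 19565 in tumors. This 77.2-fold rise was the only one of at least 4 on the log2 scale in an expressed gene, and the culture signal of Postn lay just above the limit of the class. Versican (Vcan), a large hyaluronan-binding proteoglycan, went from 354 and 343 to 3356 and 3487, a rise of 3.24 ± 0.07 (SE) or 9.83-fold (limma adjusted p = 2.98e-06). Serpinf1, which encodes the anti-angiogenic secreted protein PEDF, went from 422 and 400.1 to 3708 and 3796 (9.12-fold). The arrays within a group lay close together in each of these genes. The angiotensin receptor gene Agtr2 went from 538 and 525 to 3883 and 4096 (7.51-fold). Nidogen-2 (Nid2), a linker of basement membranes, rose 7.38-fold and the vessel-wall collagen Col15a1 6.41-fold. Syndecan-1 (Sdc1), a heparan sulfate proteoglycan of the cell surface, went from 953 and 811 to 5443 and 6181 (6.59-fold). The phospholipase gene Plaat3 rose 6.67-fold, the zinc-finger transcription factor gene Egr2 6.27-fold and Cd59b, an inhibitor of the membrane attack complex of complement, 5.89-fold.

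The 10 largest falls among expressed genes were of Pwwp3b, Nrk, Elmod1, Cfap299, Scd, Abhd3, Cth, Zcchc18, Ddah1 and Ankrd1. Pwwp3b fell from 1304 and 1428 to 79.2 and 56.5 (20.1-fold lower), and the kinase gene Nrk from 1586 and 1342 to 108 and 57.6 (17.6-fold lower). Stearoyl-CoA desaturase (Scd), which makes monounsaturated fatty acids, went from 1068 and 975 to 91.5 and 51.7 (14.3-fold lower), and cystathionine gamma-lyase (Cth), which makes cysteine, from 2546 and 2625 to 173 and 265 (11.8-fold lower). Ankrd1, a nuclear ankyrin-repeat protein induced by mechanical load and YAP, went from 1041 and 977 to 92.4 and 101 (10.4-fold lower). Ddah1, which degrades inhibitors of nitric oxide synthase, was 10.9-fold lower, Abhd3 13.4-fold, Elmod1 16.1-fold, Cfap299 15.6-fold and Zcchc18 10.9-fold. Tumor signals of these 10 genes ran from 9 to 265.

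The 10 largest rises of genes near background in culture were of Mgp, Acta1, Col6a1, Col6a2, Hbb, Bcl2a1, Apoe, Mmp2, Myl11 and Lyve1, with changes from 5.65 to 8.50. They mixed products of connective tissue, skeletal muscle, blood and immune cells. Matrix Gla protein (Mgp), an inhibitor of calcification made by stromal cells, read 14 and 22.3 in culture and 12574 and 11999 in tumors. Myl11, the regulatory light chain of fast skeletal muscle, read 4.9 and 5 in culture and 1231 and 987 in tumors. Lyve1, a hyaluronan receptor of lymphatic endothelium and of some tissue macrophages, read 17.2 and 3.6 in culture and 1305 and 1224 in tumors (5.65 ± 0.27, limma adjusted p = 4.72e-05). Over the 10 genes the highest culture signal was 32.1 and the lowest tumor signal 987.

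Of 12 measured fibroblast markers 10 were expressed in culture, as the label of the cells has it. In tumors 7 of the 12 were called higher (left-out counts 3, 5, 3 and 4) and 2 lower, with a median of 0.24 that became -0.03 under division by the median and -0.01 under quantile normalization. The intermediate filament gene Vim read 20239 and 21146 in culture and 23797 and 25074 in tumors (0.24), a call lost without any 1 of the 4 arrays and a change of -0.03 under both other scalings. The collagen gene Col1a1 went from 5060 and 4873 to 6870 and 6505, a call lost under division by the median (limma adjusted p = 0.179). The receptor gene Pdgfra fell from 6989 and 6917 to 4546 and 4654 (-0.59 ± 0.06), while Pdgfrb, a receptor also of pericytes, rose from 142 and 127 to 331 and 368 (1.28 ± 0.16).

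Macrophage markers rose in tumors in 14 of 23 measured, among them 10 of the 13 that were near background in culture. The median was 1.23, and 1 marker fell (left-out counts 0, 0, 0 and 0). Their summed signals were 8046 and 8155 in culture and 15914 and 16281 in tumors. Of these sums 2 expressed genes held 7115 and 7298 in culture. The sums of the 13 near-background markers went from 203 and 166.5 to 4656 and 4537. Not all were low in culture, where Cd14 read 2828 and 3052 and Lgmn 4287 and 4246. Aif1, the calcium-binding protein IBA1 of macrophages, read 0.8 and 0.4 in culture and 639 and 604 in tumors, while its probe set that was brighter in culture was not called (limma adjusted p = 0.14). Itgb2, the beta chain of leukocyte integrins, read 18.9 and 34.1 in culture and 805 and 843 in tumors. The complement subunit gene C1qa read 29.3 and 50.5 in culture and 914 and 887 in tumors, and its partners C1qb and C1qc rose by 3.29 and 3.14. Coro1a, an actin regulator of leukocytes, read 15 and 1.6 in culture and 912 and 1105 in tumors, and Cybb, the catalytic subunit of the phagocyte oxidase, 33.1 and 3.7 in culture and 295 and 221 in tumors. Not every defining marker was called. The macrophage antigen gene Adgre1 (F4/80) read 15.7 and 16 in tumors, the scavenger receptor gene Cd163 102 and 122 and the growth factor receptor gene Csf1r 118 and 81.4.

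Skeletal muscle genes rose in tumors, which had grown in the hindlimb. Of 25 measured muscle markers 17 rose and 1 fell, with a median of 2.16, and their summed signals were 4108 and 4000 in culture and 16546 and 15389 in tumors. In culture 2 expressed genes held 3541 and 3312 of these sums. The sums of the 19 near-background genes went from 270 and 382 to 10645 and 9308. Skeletal alpha-actin (Acta1) read 3.7 and 5.1 in culture and 5854 and 4971 in tumors. The fast troponin gene Tnnc2 read 4.1 and 40.8 in culture and 829 and 788 in tumors, the calcium pump gene Atp2a1 12.8 and 12.6 in culture and 481 and 546 in tumors, and muscle creatine kinase (Ckm) 5.7 and 36.9 in culture and 277 and 298 in tumors. The titin gene Ttn rose by 3.20 ± 0.31 and the myosin-binding protein gene Mybpc2 by 4.31 ± 0.35. The exception was Eno3, the muscle enolase, which was expressed in culture and fell from 736 and 686 to 355 and 325. The summed muscle signal was alike on both tumor arrays.

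Endothelial markers rose in 10 of 17 measured (left-out counts 6, 8, 5 and 6), with a median of 1.48 and summed signals of 703 and 693 in culture and 3416 and 3395 in tumors. The VEGF receptor gene Flt1 read 58.5 and 58.8 in culture and 382 and 434 in tumors, the water channel gene Aqp1 33.3 and 20.7 in culture and 1763 and 1550 in tumors, the phosphatase gene Ptprb 3.3 and 5.6 in culture and 107 and 118 in tumors, and endomucin (Emcn) 9.8 and 5.8 in culture and 83.4 and 91.9 in tumors. Other defining markers were near background on all 4 arrays: tumor signals were 17.8 and 27.5 for Pecam1, 6.9 and 11.3 for Kdr and 9.7 and 10.2 for Vwf. Of 6 measured erythroid markers 3 rose (left-out counts 2, 2, 2 and 3). The globin gene Hbb read 12 and 13.9 in culture and 3224 and 3309 in tumors, and Alas2, the heme synthesis enzyme of red cells, 18.7 and 15.7 in culture and 125 and 97.5 in tumors. The third was Bpgm, an enzyme of red cells that was expressed in culture, at 641 and 604 there and 1008 and 811 in tumors, a call lost without culture replicate 1, culture replicate 2 or tumor replicate 1, and under division by the median (limma adjusted p 0.0673 to 0.139).

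Pericyte and stromal markers split, with 7 of 16 higher and 3 lower (median 0.61, summed signals 12920 and 12632 in culture, 13935 and 13463 in tumors). In culture 4 expressed genes held 12346 and 12087.5 of these sums. The sums of the 8 near-background genes went from 119.1 and 145.1 to 2111.5 and 2130.6. The small leucine-rich proteoglycan gene Dcn went from 39.2 and 40.5 in culture to 799.7 and 709 in tumors, and its relative Lum from 14.7 and 1.6 to 467 and 519.6. Cd248, a surface glycoprotein of stromal fibroblasts and pericytes, read 2.6 and 1.8 in culture and 397 and 373 in tumors, while its probe set that was brighter in culture was not called (limma adjusted p = 0.841). Abcc9, a potassium channel subunit of pericytes, fell by 2.23 and Rgs5 was not called (41.3 and 25.2 in tumors). Of 11 granulocyte and mast cell markers 4 rose (left-out counts 1, 2, 3 and 3), among them the neutrophil calgranulin gene S100a9, from 2.5 and 3.6 to 215 and 208. Their summed signals were 130 and 171 in culture and 681 and 549 in tumors.

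Lymphoid markers rose in 8 of 18 measured (left-out counts 2, 3, 2 and 2), in hosts that lack a thymus. The T cell gene Cd3e went from 27.3 and 30.6 to 95.1 and 80.8, a call lost without any 1 of the 4 arrays, and Cd8a from 5.2 and 15.4 to 97.7 and 74.9, a call lost without culture replicate 1 (change 1.69). The summed signals were 396 and 402 in culture and 1050 and 919 in tumors. The B cell genes Cd79b and Ms4a1 were not called. Adipocyte (3 of 11 higher, 1 lower), keratinocyte (1 of 12 higher, left-out counts 0, 0, 1 and 0, and 1 lower) and nerve markers (2 of 8 higher, left-out counts 0, 0, 1 and 1, and 1 lower, left-out counts 0, 0, 0 and 1) were mostly not called. Adiponectin (Adipoq) read 24.6 and 11.7 in tumors, the keratin gene Krt14 33.6 and 21.6 and the Schwann cell gene Mbp 7.9 and 37.2. The part of these host-cell lists in the results on matrix, antigen presentation, chemokines and complement was not tested.

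**Figure D2:**
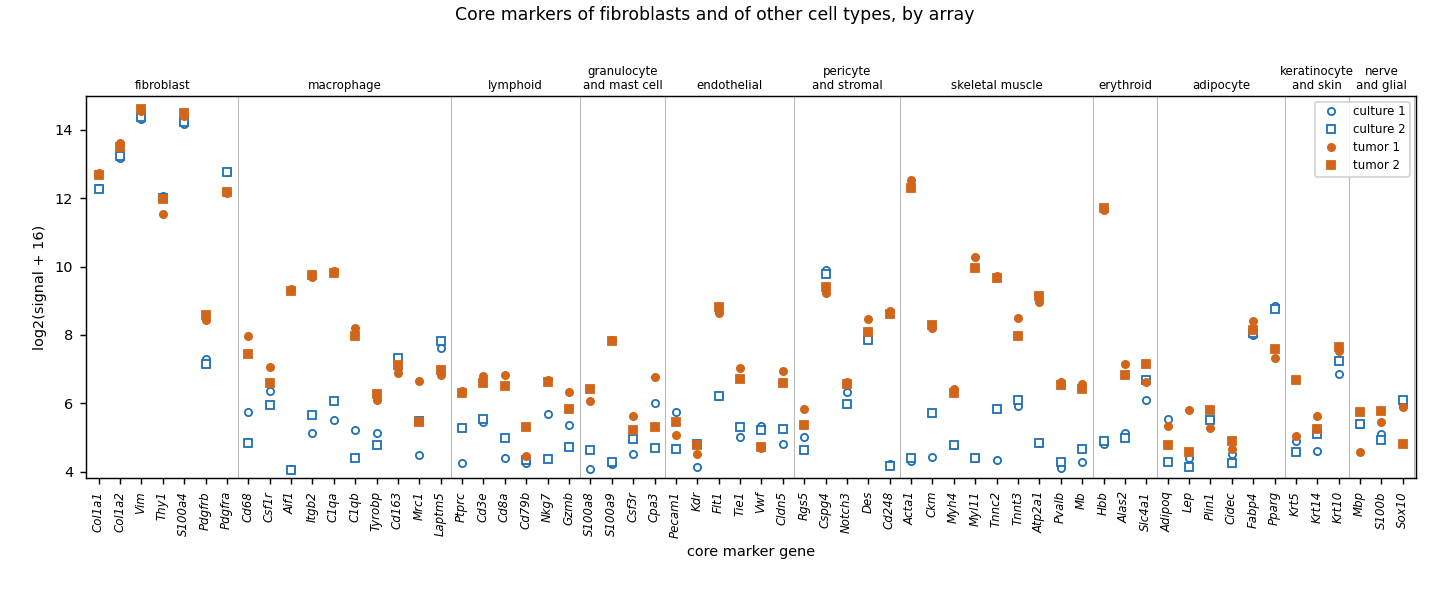
log2(signal + 16) on each of the 4 arrays (open blue, culture; filled orange, tumors) for core marker genes of 11 cell types. Fibroblast markers are high on all 4 arrays, macrophage, muscle and erythroid markers such as Aif1, Acta1 and Hbb are high on both tumor arrays alone, and Pecam1, Kdr, Vwf and Adipoq lie near the floor on all 4.

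Cholesterol is built from acetyl-CoA through mevalonate, farnesyl pyrophosphate, squalene and lanosterol, and cells switch the enzymes on together through the transcription factor SREBP-2 when sterol in their membranes is low. Promoters of these genes tend to hold sterol regulatory elements beside boxes for the CCAAT-binding factor NF-Y. Acat2, with the largest fall of the pathway, was not among the genes found with a CCAAT box. Of the genes found with a box, the 2 with the largest falls were Tm7sf2 and Hsd17b7. Their promoters are shown with each box in capitals, which reads ATTGG because the boxes lie on the opposite strand. They are RefSeq promoters of the rat assembly GRCr8, running 5′ to 3′ on the strand of the gene from 250 bases before its start to 50 after. Tm7sf2 is at chr1:212789492-212789791 on the minus strand and Hsd17b7 at chr13:84722705-84723004 on the minus strand.
Tm7sf2: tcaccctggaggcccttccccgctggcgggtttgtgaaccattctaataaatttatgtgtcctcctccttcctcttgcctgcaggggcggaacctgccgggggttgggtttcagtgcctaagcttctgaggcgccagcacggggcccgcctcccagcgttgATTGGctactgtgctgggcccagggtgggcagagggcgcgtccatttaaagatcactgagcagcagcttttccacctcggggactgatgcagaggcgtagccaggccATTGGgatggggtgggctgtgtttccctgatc
Hsd17b7: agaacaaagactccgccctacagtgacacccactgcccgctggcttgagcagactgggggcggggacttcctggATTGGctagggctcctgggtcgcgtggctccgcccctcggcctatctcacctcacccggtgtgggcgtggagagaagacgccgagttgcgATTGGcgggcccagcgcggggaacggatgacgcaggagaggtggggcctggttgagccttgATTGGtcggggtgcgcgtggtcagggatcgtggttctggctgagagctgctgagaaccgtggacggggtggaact
The Hsd17b7 window held 3 matches and that of Tm7sf2 2. The table held promoters for 14 of the 17 measured genes of the pathway. CCAAT on either strand stood in at least 1 promoter of 11 of these genes (78.6%), and in 37.5% of all 33469 promoters. The list was counted by gene and the background by promoter, so a gene with several promoters had more openings for a match. The letters TCACNCCAC, 1 form of the sterol regulatory element, were in 0 of the 14 genes and in 1.12% of all promoters. A match describes these letters in this window and is no sign that a factor binds.

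All 17 measured enzymes of cholesterol synthesis were expressed in culture and all 17 fell in tumors, with a median of -1.88 (-2.15 under division by the median). The summed signals were 69001 and 70232 in culture and 20031 and 21309 in tumors. At the entry of the pathway Acat2, which joins acetyl-CoA units, fell from 5484 and 5567 to 793 and 922 (6.44-fold lower). Of the mevalonate kinases, Mvk fell from 405 and 371 to 262 and 277 (-0.50 ± 0.12) and Pmvk from 3920 and 4048 to 1028 and 1061 (-1.92 ± 0.06). The count of 17 was 16 without each of the 4 arrays, each time with Mvk lost (limma adjusted p 0.0673 to 0.163). Idi1, Fdps and Fdft1, which make and join the isoprene units, fell by 1.88, 2.12 and 1.13.

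Beyond squalene, squalene epoxidase (Sqle), a rate-controlling step, went from 3716 and 3509 to 1192 and 1379 (2.81-fold lower), and Lss and Cyp51, which form and demethylate lanosterol, fell by 1.49 and 1.54. The sterol reductase gene Tm7sf2 went from 973 and 1025 to 170.1 and 122 (6.83-fold lower) and the ketone reductase gene Hsd17b7 from 2217 and 2164 to 344 and 354 (6.28-fold lower). The last enzyme, Dhcr7, went from 2274 and 2102 to 335 and 379 (6.12-fold lower). Of the other late enzymes the isomerase gene Ebp fell by 0.91 and the desaturase gene Sc5d fell by 2.14. Both tumor arrays lay below both culture arrays for each of the 17 enzymes, as for 41.6% of all expressed genes (and above them for 34.8%).

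Regulators of sterol balance moved in both directions. Of 14 measured, 4 rose (left-out counts 2, 3, 1 and 1) and 6 fell, with a median of -0.07 (0.06 without tumor replicate 1). Srebf1, which encodes SREBP-1, fell from 1225 and 1286 to 557 and 522 (-1.20 ± 0.08, limma adjusted p = 0.000166). Srebf2, which encodes SREBP-2, read 772 and 731 in culture and 535 and 879 in tumors. The tumor arrays of Srebf2 lay on either side of culture, and it was not called, except without tumor replicate 2 (-0.48, limma adjusted p = 0.0407). Insig1, itself an SREBP target that retains the SREBP complex in the endoplasmic reticulum, fell from 4594 and 4099 to 1657 and 1741. The sterol carrier gene Stard4 fell from 773 and 734 to 266 and 219. The efflux pump gene Abca1, a target of the oxysterol receptor LXR, fell from 1731 and 1734 to 782 and 704, and the esterifying enzyme gene Soat1 fell by 1.09. Abcg1, another LXR target, read 1048 and 1002 in culture and 1057 and 989 in tumors and was not called. Apoe, near background in culture, rose to 2788 and 2511, and it is also a product of macrophages.

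Fatty acid genes fell in 16 of 26 measured, all 16 of them among the 22 expressed in culture, and 3 rose (left-out counts 2, 1, 3 and 2). Acly, which makes cytosolic acetyl-CoA, went from 8698 and 8172 to 3596 and 4331, and fatty acid synthase (Fasn) from 4301 and 4398 to 1619 and 1441. The desaturase gene Fads1 fell from 6995 and 7019 to 2688 and 2546, the elongase gene Elovl6 from 2956 and 3172 to 1264 and 1193 and the acetate-activating enzyme gene Acss2 from 1984 and 2009 to 510.2 and 495. Groups did not overlap in any of these. Of the 3 rises, 2 were of genes near background in culture that take up lipid from outside the cell: lipoprotein lipase (Lpl) read 4 and 10.4 in culture and 74.6 and 119.6 in tumors, while the fatty acid transporter gene Cd36, also a marker of macrophages, vessels and fat, read 16.2 and 8.3 in culture and 101 and 72.6 in tumors, a call lost without culture replicate 2 (limma adjusted p = 0.0673).

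**Figure D3:**
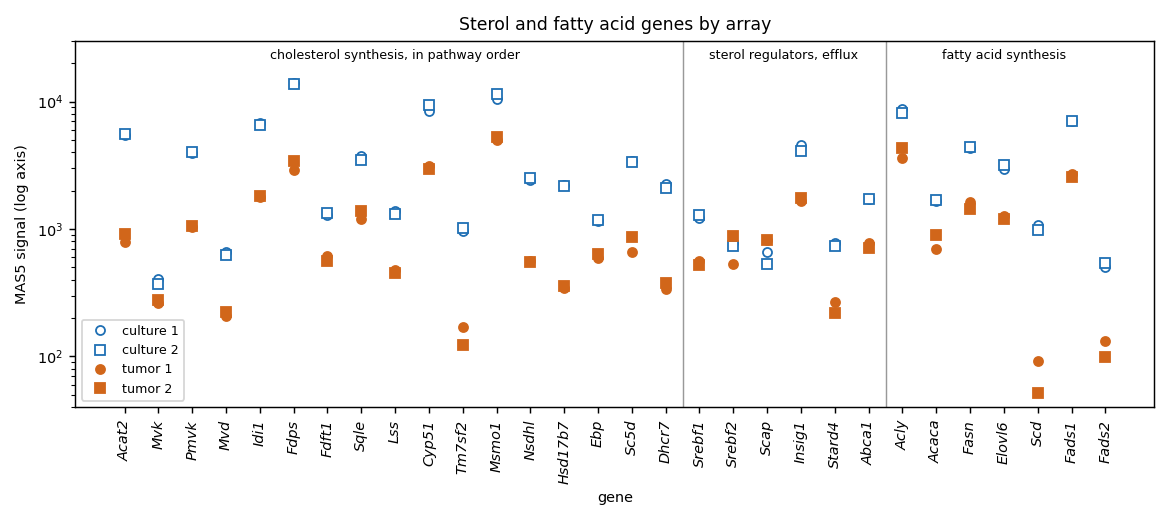
MAS5 signal on a log axis for each of the 4 arrays (open blue, culture; filled orange, tumors) of the 17 cholesterol synthesis genes in pathway order, 6 sterol regulators and 7 fatty acid synthesis genes. Tumor points lie below culture points for all 17 synthesis genes, while those of Srebf2 overlap.

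Cell division genes were lower in tumors. Of 28 measured cell cycle genes 19 fell, with a median of -0.61, and 18 or 19 fell without any of the 4 arrays. The proliferation antigen gene Mki67 went from 4588 and 4778 to 2246 and 2049 (2.18-fold lower), the kinesin gene Kif20a from 4311 and 4462 to 1523 and 1421 (2.98-fold lower) and the kinetochore gene Cenpf from 2750 and 2703 to 851 and 960.5 (3.01-fold lower). The mitotic cyclin Ccnb1 fell by 0.80 and its kinase Cdk1 by 0.58. Cyclin A2 (Ccna2) read 2616 and 3297 in culture and 2671 and 2924 in tumors, while the mitotic kinase gene Plk1 read 1107 and 1041 in culture and 1227 and 1005 in tumors. In these 2 genes groups overlapped, and neither was called. Of 24 replication and nucleotide genes 14 fell and 1 rose (left-out counts of the rise 0, 0, 0 and 1; median -0.43), with Mcm5, a subunit of the replicative helicase, at -0.60 ± 0.07, Tk1, thymidine kinase, at -0.79 ± 0.07, and Pcna, the sliding clamp, not called at 8609 and 8760 in culture and 9023 and 9121 in tumors.

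D cyclins and CDK inhibitors govern entry into the cycle. Cyclin D1 (Ccnd1) read 9719 and 9663 in culture and 10020 and 10960 in tumors and was not called (limma adjusted p = 0.278). Of 14 such genes 3 rose (left-out counts 0, 0, 2 and 1) and 3 fell, near the 17% and 13.6% of all genes, and the median of 0.09 became -0.11 under division by the median and -0.08 with filters on weak probe sets. The CDK inhibitor gene Cdkn1b (p27) read 3982 and 3759 in culture and 3561 and 3755 in tumors and was not called. The retinoblastoma gene Rb1 fell from 760.3 and 658 to 239 and 336 (-1.27 ± 0.17) and its relative Rbl1 from 1883 and 1817 to 1280 and 1311. Among 13 measured p53 targets 5 fell (left-out counts 2, 3, 2 and 2) and 2 rose (left-out counts 1, 1, 1 and 1). Gadd45a, a stress sensor, rose from 656 and 629.7 to 1866 and 1848 (2.89-fold) and Ccng1 fell from 6518 and 6566 to 3637 and 4019.

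Myc and part of the ribosome biogenesis genes went up while division genes went down. Myc read 228 and 227 in culture and 397 and 417 in tumors (0.80 ± 0.12, limma adjusted p = 0.00423). Of 26 measured genes of this group 12 rose (left-out counts 5, 7, 5 and 6) and 2 fell (left-out counts 1, 0, 1 and 2), with a median of 0.28, or 0.01 under division by the median. Of 23 ribosomal protein genes 14 were called higher (left-out counts 0, 0, 1 and 0; median 0.25). Under division by the median their median was -0.01 and 0 were called.

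Enzymes of serine, cysteine and asparagine synthesis fell, and the stress regulator Atf4 rose. Phgdh, the first enzyme of serine synthesis, went from 375 and 307 to 43.2 and 42.6 (7.94-fold lower), and Psat1, the next enzyme, from 4142 and 4013 to 1380 and 1465 (2.87-fold lower). Asparagine synthetase (Asns) fell from 2522 and 2395 to 1506 and 1455. The transcription factor gene Atf4 went the other way, from 4082 and 3938 to 6474 and 6668 (0.71 ± 0.06), as did Ddit3 (CHOP), from 636 and 705 to 1027 and 968, and Slc3a2, the shared chain of amino acid exchangers, from 1173 and 1205 to 2117 and 2060. Over the list 10 of 23 fell (left-out counts 6, 6, 5 and 6) and 5 rose. Vldlr, a lipoprotein receptor that ATF4 can induce, fell from 1743 and 1631 to 345 and 414.

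Glycolysis and hypoxia genes leaned lower in the tumors. Of 20 glucose genes 9 fell (left-out counts 4, 5, 6 and 6) and 4 rose (left-out counts 4, 2, 3 and 2), with a median of -0.17. The glucose transporter gene Slc2a1 rose from 1524 and 1375 to 2114 and 2214, a call lost under division by the median (limma adjusted p = 0.0544), and the phosphofructokinase gene Pfkp from 2288 and 2284 to 3586 and 3597, whereas the isomerase gene Gpi fell from 5875 and 6097 to 2987 and 3172. Carbonic anhydrase 9 (Car9), a classic target of hypoxia-inducible factor, fell from 4091 and 3921 to 1088 and 959 (3.92-fold lower), and Bnip3, a mitophagy gene, from 6545 and 6443 to 4044 and 3862. Vegfa read 2853 and 2562 in culture and 2722 and 2812 in tumors and was not called, and Ddit4, an inhibitor of mTOR, rose from 546 and 579.5 to 1030 and 1090. Over the 19 hypoxia targets 8 fell and 2 rose (left-out counts of the rises 1, 1, 1 and 2; median -0.18).

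The other stress and energy groups had a smaller share of called members than the glucose and hypoxia lists. Most members of these other groups were expressed in culture, and of all expressed genes 18.4% rose and 24% fell. Of 18 endoplasmic reticulum chaperone genes 3 fell (left-out counts 2, 3, 1 and 3) and 1 rose (left-out counts 0, 0, 0 and 0), with a median of -0.12. The chaperone gene Hspa5 read 13215 and 14288 in culture and 13421 and 13524 in tumors. Of 24 glutathione and NRF2 genes 7 fell (left-out counts 4, 4, 5 and 5) and 1 rose, with a median of -0.07 that became 0.02 with a filter at the 60th percentile. Single changes in this list ran from -2.50 to 0.93. The pentose phosphate enzyme gene Pgd went from 3526 and 3640 to 1430 and 1425 (2.51-fold lower) and the quinone reductase gene Nqo1 from 1068 and 1116 to 689 and 616. Heme oxygenase 1 (Hmox1) read 212 and 237 in culture and 269 and 304 in tumors and was not called. Of 28 respiratory chain and citric acid cycle genes 8 fell (left-out counts 6, 5, 6 and 5) and 4 rose (left-out counts 0, 1, 0 and 0), with a median of -0.05. The largest change of the 28 was in Ndufa4, a subunit of the respiratory chain, from 9352 and 9710 to 5094 and 5017 (-0.91 ± 0.06).

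Matrix genes rose among those expressed in culture as well as among those near background. All 5 expressed fibrillar collagens rose: Col3a1 went from 5549 and 5287 to 14933 and 16018 (2.86-fold), Col5a2 from 7710 and 7670 to 11748 and 12537 and Col1a1 from 5060 and 4873 to 6870 and 6505. Of the other 3, Col5a3 rose from 5 and 2.7 to 356 and 366. Of 15 non-fibrillar collagens 10 rose and 2 fell, namely Col4a5, from 1896 and 1938 to 414 and 439.7 (4.49-fold lower), and Col8a1, from 3427 and 3302 to 2199 and 2159. The 7 non-fibrillar collagens expressed in culture had a median of 0.27, or 0.01 under division by the median. The chains of collagen VI, a microfibrillar collagen, were near background or intermediate in culture and rose in tumors: Col6a1 read 19.1 and 5.3 in culture and 4388 and 4815 in tumors, and Col6a3 172 and 164 in culture and 8257 and 8004 in tumors.

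Of 32 matrix glycoproteins and proteoglycans 20 rose and 1 fell, with 9 of the 16 expressed in culture higher. Tenascin-C (Tnc), an adhesion-modulating protein of healing and tumor stroma, went from 212 and 219.6 to 1286 and 1242 (5.86-fold), and the basement membrane gene Nid1 from 2770 and 2643 to 5483 and 5265. The collagen-binding glycoprotein gene Sparc went from 2622 and 2718 to 5182 and 5059. Fibronectin (Fn1) and osteopontin (Spp1) were not called: Fn1 read 12747 and 12743 in culture and 12355 and 13080 in tumors, and Spp1 17919 and 18336 in culture and 18138 and 18687 in tumors. Tgfbi, intermediate in culture, went from 173 and 146 to 3539 and 3620, and asporin (Aspn) from 86.5 and 99.9 to 1740 and 1765. Both tumor arrays lay close together in each of these.

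Enzymes that cut the matrix changed in a mixed way. Of 31 proteases and inhibitors 16 rose and 4 fell, with a median of 0.32, or 0.05 under division by the median. For the 20 expressed in culture the median of 0.25 became -0.02 under that division. The collagenase gene Mmp13 fell from 18274 and 18998 to 12648 and 14107 (-0.48 ± 0.07), the stromelysin gene Mmp3 rose from 12062 and 11940 to 16353 and 15630 (0.41 ± 0.06, a call lost under division by the median at limma adjusted p = 0.254) and Mmp10 read 17266 and 16846 in culture and 15488 and 15798 in tumors and was not called. The membrane-bound protease gene Mmp14, which activates the gelatinase MMP2, rose from 3099 and 3332 to 6549 and 6647, and Mmp2 itself from 30.6 and 20.4 to 2139 and 2294. The lysosomal protease gene Ctsh rose 3.19-fold and the inhibitor gene Cst3 2.69-fold. Enzymes that crosslink and hydroxylate collagen, all expressed in culture, changed about as often as other expressed genes: of 16, 3 rose and 4 fell, beside 18.4% and 24% of all expressed genes. Lysyl oxidase (Lox) fell from 6604 and 6223 to 4077 and 4058 and the prolyl hydroxylase gene P4ha1 from 3817 and 3501 to 2236 and 2179, and the transglutaminase gene Tgm2 rose from 674 and 662 to 2764 and 2708 (4.1-fold).

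In the TGF-beta family, whose ligands drive matrix production by fibroblasts, 8 of 26 measured genes rose (left-out counts 5, 6, 7 and 4) and 3 fell, with a median of 0.16, or -0.08 under division by the median. The ligand gene Tgfb1 rose from 569 and 767 to 1393 and 1248 and Tgfb2 from 302 and 308 to 716 and 623. Inhba, which encodes an activin subunit, rose from 287 and 399.5 to 1927 and 1975 (5.69-fold). Ltbp1, which anchors latent TGF-beta in the matrix, fell from 3049 and 3443 to 788 and 789.7 (4.11-fold lower), and the BMP antagonist gene Grem1 from 5443 and 5735 to 2250 and 1988 (2.64-fold lower). The feedback gene Smad7 read 515 and 572 in culture and 498 and 792 in tumors, overlapping between groups, and was called without tumor replicate 1 alone (0.53, limma adjusted p = 0.0477).

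Targets of the mechanical regulators YAP and SRF moved in both directions. Of the 15 expressed in culture 3 rose and 5 fell, beside 18.4% and 24% of all expressed genes. Ccn2 (CTGF) fell from 800.3 and 746 to 224 and 303 (2.93-fold lower), like Ankrd1, and the smooth muscle actin gene Acta2 rose from 450.1 and 398 to 1232 and 974 (2.6-fold). Tropomyosin 2 (Tpm2) fell by 0.57. Of 20 genes of this group 5 rose (left-out counts 4, 3, 2 and 2) and 6 fell.

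In the WNT pathway, where frizzled receptors act through beta-catenin on TCF factors and the feedback gene Axin2, 6 of 23 genes rose and 2 fell (left-out counts of the falls 1, 1, 1 and 2). Axin2 went from 68.9 and 42.3 in culture to 693 and 705 in tumors (3.35 ± 0.21, limma adjusted p = 0.000137) and the factor gene Tcf7 from 1134 and 959 to 2289 and 2158 (2.12-fold). Wnt5a, a ligand, read 81.5 and 54.6 in culture and 279.9 and 249.9 in tumors. The receptor gene Fzd4 moved the other way, from 504 and 538 to 46.9 and 58.6 (9.88-fold lower). Ctnnb1, which encodes beta-catenin, was not called at 13216 and 14431 in culture and 14828 and 16044 in tumors.

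Immediate early genes, which growth factors switch on through ERK within minutes, included some of the larger rises of this group. Fos was near background in culture, at 43.4 and 39.3, and read 754 and 846 in tumors (3.83 ± 0.16). Egr1 went from 863 and 814 to 3453 and 3686 (4.26-fold), Egr2 from 334 and 325 to 1992 and 2133 and Junb from 243 and 276 to 445 and 590.4. Among inhibitors that ERK induces in turn, the phosphatase gene Dusp6 read 9841 and 9174 in culture and 9176 and 10144 in tumors, and Spry2 fell from 4255 and 4381 to 3266 and 3271. The EGF-like ligand gene Areg fell from 5100 and 4661 to 3239 and 3019, and the receptor gene Egfr rose from 197 and 173 to 420.1 and 488. Over the list of EGF receptor, ERK and immediate early genes 11 of 32 rose and 3 fell. Tumors were excised and frozen and cultures were not, and the part of that handling in the immediate early genes cannot be told apart from the growth setting.

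In the insulin-like growth factor axis 7 of 14 genes rose (left-out counts 6, 4, 3 and 6) and 1 fell. The receptor gene Igf1r fell from 3852 and 3726 to 1759 and 1748 (2.16-fold lower). The binding protein gene Igfbp3, near background in culture, read 2.8 and 14.6 in culture and 609 and 620.3 in tumors. Among 21 integrin and adhesion genes 5 rose and 7 fell. All 7 were among the 14 expressed in culture, beside 24% lower of all expressed genes. N-cadherin (Cdh2) fell from 1603 and 1556 to 682 and 734 (2.23-fold lower), the collagen-binding integrin gene Itga1 rose from 381 and 446 to 1329 and 1234 (3.1-fold), and the laminin receptor gene Itga7 fell from 524 and 453 to 169 and 184. E-cadherin (Cdh1), an epithelial protein, was near background in culture at 1.1 and 5.2 and read 537 and 425 in tumors.

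Interferons act through STAT and IRF factors on promoters holding the interferon-stimulated response element, and turn on antiviral proteins and antigen presentation. RefSeq promoters of Gbp2 and Ifit3, which rose in tumors and hold the element, are shown with the match in capitals. The letters searched on both strands were GAAA, any 2 bases and GAAA, which read TTTC, any 2 bases and TTTC on the strand of these genes. Both run from 250 bases before to 50 after the start in GRCr8, Gbp2 at chr2:234005477-234005776 and Ifit3 at chr1:241527076-241527375, both on the plus strand.
Gbp2: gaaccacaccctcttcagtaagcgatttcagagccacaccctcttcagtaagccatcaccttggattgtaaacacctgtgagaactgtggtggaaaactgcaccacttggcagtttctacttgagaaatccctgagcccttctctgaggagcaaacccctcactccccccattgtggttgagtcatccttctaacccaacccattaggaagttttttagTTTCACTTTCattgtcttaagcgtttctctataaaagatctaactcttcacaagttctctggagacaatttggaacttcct
Ifit3: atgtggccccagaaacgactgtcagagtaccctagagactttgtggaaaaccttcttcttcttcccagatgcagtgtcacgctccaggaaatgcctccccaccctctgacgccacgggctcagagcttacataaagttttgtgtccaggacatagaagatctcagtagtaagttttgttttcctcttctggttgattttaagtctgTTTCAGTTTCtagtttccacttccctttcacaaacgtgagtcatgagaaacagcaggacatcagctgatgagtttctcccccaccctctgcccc
The motif stood in at least 1 promoter of 13 of 22 genes of the interferon list (59.1%). For the MHC class I list it did so in 7 of 12 genes (58.3%). Over all promoters, counted singly and not by gene, it stood in 3.92%.

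Of the 29 interferon genes 17 were expressed in culture already, near the 53.7% of all genes, and part of them rose further. Of 29 measured 14 rose and 2 fell (left-out counts of the falls 0, 0, 2 and 0; median 0.59), and of the 17 expressed in culture 11 rose. The guanylate-binding protein gene Gbp2 went from 829 and 868 to 4939 and 4750 (5.71-fold), the ubiquitin-like modifier gene Isg15 from 1701 and 1518 to 3856 and 3827 (2.39-fold) and Ifit2, an inhibitor of viral translation, from 379.6 and 391 to 1301 and 1316 (3.39-fold). Ifit3 went from 182 and 219 to 595 and 722. The regulator gene Irf1 rose from 1118 and 1040 to 2069 and 2159 and Irf7 from 1169 and 1111 to 2160 and 2243. Usp18, which removes ISG15 and dampens the receptor, fell from 1675 and 1664 to 1391 and 1216 (-0.36 ± 0.08), a call lost without culture replicate 1, culture replicate 2 or tumor replicate 2 (limma adjusted p up to 0.103). The rises of the list numbered 11 or 12 without any of the 4 arrays.

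Part of the MHC class I genes and most class II genes of antigen presentation rose. For MHC class I, which shows peptides of the cell itself, 7 of 15 rose, 6 of them expressed in culture, and 8 were not called. The class I median of 0.31 became 0.12 under division by the median, and that of the 11 expressed genes went from 0.31 to 0.04. The immunoproteasome subunit gene Psmb8 went from 973 and 1157 to 2355 and 2110, Psmb9 from 1402 and 1449 to 2616 and 2530 and Psmb10 from 589 and 563 to 1593 and 1532. The light chain gene B2m read 16900 and 18293 in culture and 19172 and 21141 in tumors and was not called. For MHC class II, carried by macrophages, dendritic cells and B cells, 8 of 9 rose, 6 of them intermediate in culture. The class II chain gene RT1-Da read 54.4 and 65.5 in culture and 428 and 389.8 in tumors, RT1-Db1 66.4 and 95.7 in culture and 1352 and 1459 in tumors, while the invariant chain gene Cd74 read 58.4 and 41.7 in culture and 4211 and 4201 in tumors. The class II activator gene Ciita read 111 and 95 in culture and 111 and 101 in tumors and was not called.

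Of 14 NF-kB feedback and survival genes 11 rose, 6 of them expressed in culture. Nfkbia, the inhibitor that NF-kB induces, went from 753 and 697 to 1372 and 1391, and superoxide dismutase 2 (Sod2) from 643 and 709.6 to 1333 and 1332. Vcam1, a leukocyte adhesion molecule, went from 73.8 and 63.3 to 2163 and 2112, while Icam1 read 1493 and 1412 in culture and 1496 and 1437 in tumors and was not called. Of 31 chemokines and cytokines 14 rose (left-out counts 7, 8, 9 and 10) and 1 fell. The fall was of Ccl2, the monocyte attractant, bright in culture, from 9381 and 9022 to 6388 and 6749 (-0.49 ± 0.06). The neutrophil attractant gene Cxcl1 read 1695 and 1564 in culture and 1569 and 1993 in tumors, the interferon-inducible Cxcl10 2533 and 2447 in culture and 2320 and 2386 in tumors, and neither was called. The alarmin gene Il33 rose from 589 and 584 to 1217 and 1186, Cxcl12 from 135 and 109 to 437 and 410.5 and Il18 from 43.5 and 48.4 to 595 and 525.

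Complement genes rose in 10 of 15 and fell in 2. The first-component protease gene C1s, expressed in culture, went from 3846 and 3804 to 6967 and 7196 and its partner C1r from 3463 and 3451 to 5033 and 5128. The central component gene C3 read 17.7 and 18.6 in culture and 212 and 174 in tumors, while the C1 inhibitor gene Serping1 read 3.4 and 1.5 in culture and 111 and 68.9 in tumors. Among shields of the cell surface, Cd55 fell from 854 and 771 to 260.2 and 324 (2.78-fold lower) and Cd59b rose from 379 and 287 to 1999 and 1924. Clusterin (Clu), a fluid-phase inhibitor, fell from 6561 and 6752 to 4209 and 4133.

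**Figure D4:**
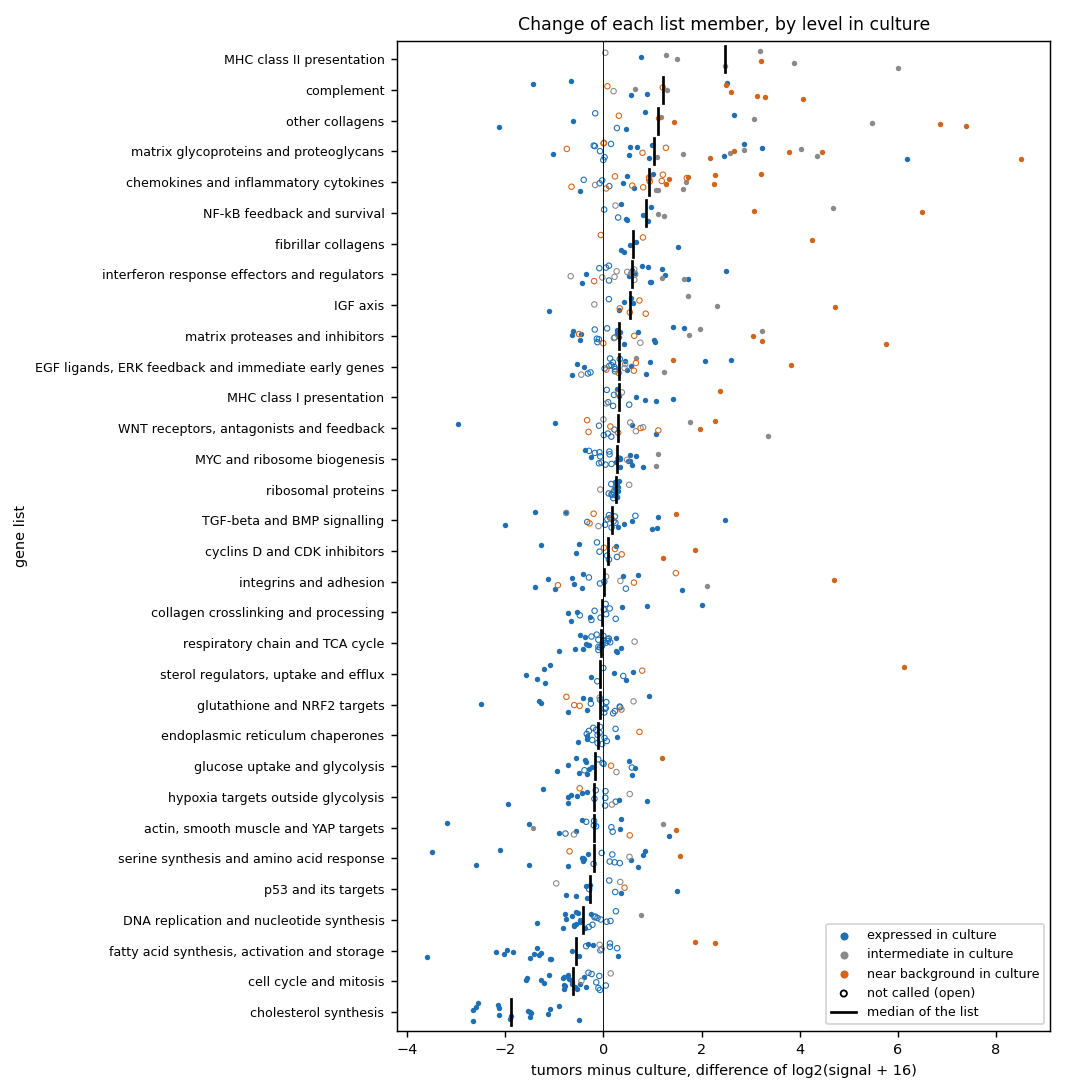
Change of each measured member (tumors minus culture, log2 scale) in 32 gene lists ordered by their median, coloured by level in culture, with filled points called and open points not called. Cholesterol synthesis lies wholly below 0 at the foot, MHC class II and complement at the top, and the largest rises within the matrix lists are of genes near background or intermediate in culture, with Postn the exception.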

How the data were processed

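RNA of 4 samples was measured on 1 array each. Values are the intensity of each probe set as deposited, a MAS5 signal per the submitters' processing notes, with no software version or target level given in the sources used; the 2% trimmed mean was 500 on each array. Depth does not apply, and the number of arrays limits precision.

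From these, log2(intensity + 16) of 31042 probe sets (57 controls left out, no filter) was fitted with limma 3.58.1 in R 4.3.3 (lmFit, eBayes with trend, 2 residual degrees of freedom), without the 2 Vector arrays, and adjusted by Benjamini-Hochberg over all probe sets. Gene names came from the platform annotation, updated through RefSeq (GRCr8): 20826 probe sets named 1 gene, 436 several and 9780 none, and several or none were left out of gene counts. Probe sets of a gene can disagree: 59 genes had some called in opposite directions. On simulated arrays of this comparison, 200 of 31042 probe sets were changed (10 simulations). Of probe sets changed 2-fold 38.1% were called, of those changed 4-fold 78.6%, and false calls made up 3.55% of calls. The real arrays had 7243 called probe sets, far more than 200, so these rates need not hold for them. The rates were not split by level in culture and are not to be applied to near-background genes.

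Members, gene lists and classes were chosen with earlier results of these data known. Genes described were the 10 largest rises and 10 largest falls among expressed genes, the 10 largest rises near background, controls and Muc1. Others were picked from fixed core members of each list and up to 4 others of smallest p, and not all of these are described. Core members left out include Cdkn1a, called lower, Ccnd2 and Cdkn1c, called higher, and Mthfd2, Tap1 and Pgk1, not called. Abcc9, Abcg1, Adgre1, C1r, Cd14, Cd36, Cd55, Ciita, Cybb, Cyp51, Ebp, Eno3, Fdft1, Fdps, Lgmn, Lss, Ms4a1, Mvk, Nid1, Sc5d and Tm7sf2, and those in the closing section, were chosen after their values were seen. Alternatives were other pseudocounts, filters, scalings, class limits, probe set choices, a fit without trend, a fit of all 6 arrays, a replicate block and leaving out each array. Promoters, from 250 bases before to 50 after the start, and their coordinates are of RefSeq GRCr8.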

Additional observations from a re-analysis of the deposited data

How the results depend on the processing

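With 2 arrays a group, strong signals decide which calls can be made: replicate differences had an SD of 0.183 in tumors and 0.150 in culture among expressed genes, and of 0.647 and 0.529 among near-background genes. The direction of weak changes depends on the scaling, since the median of all probe sets was 0.13 as deposited, -0.02 after quantile normalization and -0.07 after division by the median. The 196 called genes described in this text, with those of the closing section, include those with the largest changes and smallest p on these same arrays. They do not stand for all called genes. Whether such a gene keeps its call in another setting is partly fixed by that choice. With no mean-variance trend 22 lost it (Areg, Bpgm, C1r, Ccl2, Cdk1, Col1a1, Col8a1, Ddit3, Junb, Lgmn, Mcm5, Mmp13, Mmp3, Mvk, Pdgfra, Rbl1, Slc2a1, Spry2, Tgfb1, Tpm2, Usp18 and Vim) and with all 6 arrays 20 (Acta2, Areg, Bpgm, Ccl2, Cd3e, Col1a1, Ddit4, Gpi, Junb, Mcm5, Mmp14, Mmp3, Mvk, Pgd, Rbl1, Slc2a1, Spry2, Tgfb1, Usp18 and Vim). Division by the median ended the calls of Bpgm, Col1a1, Mmp3 and Slc2a1 and made calls of Cdkn1b, Cxcl10, Hspa5 and Mmp10; quantile normalization ended that of Cd3e and made calls of Cd14 and Mmp10. Aif1 and Cd248 lost theirs with the probe set brightest in culture, and B2m gained one with either filter. Vim, whose change was -0.025 under quantile normalization and -0.032 under division by the median, was the 1 named gene that reversed.

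Probe sets called numbered 2960 with no mean-variance trend, 2676 in a fit of all 6 arrays (all 2676 among the 7243) and 3959 to 4962 without 1 array. Expressed genes called higher numbered 478 under division by the median, 295 with no trend, 382 with all 6 arrays, 862 or 832 with the class from 1 culture array and the change from the other, and 796 to 847 without 1 array. Expressed genes called lower numbered 3457, 529, 717, 1142 or 1191 under the same settings, and 1142 to 1389 without 1 array. The median of expressed genes was -0.30 under division by the median, -0.064 with class limits at the 30th and 70th percentiles, -0.0092 with 1 limit at the 50th, -0.021 with the class from culture replicate 1, and 0.0097, the opposite sign, with the mean over all probe sets of a gene. Near-background genes called higher numbered 278 and 45 with filters at the 40th and 60th percentiles, which leave fewer such genes, 395 with all 6 arrays, 324 or 331 with the class from 1 culture array, and 307 to 511 without 1 array. Near-background genes called lower numbered 10 with pseudocount 1, 0 with either filter, 49 after quantile normalization, 33 under division by the median, 4 with all 6 arrays, 9 with limits at the 30th and 70th percentiles, 39 with 1 limit at the 50th, 0 or 3 with the class from 1 culture array, and 0 to 4 without 1 array. The median of near-background genes was 0.81 with pseudocount 1, 0.16 with pseudocount 64, 2.37 and 4.45 with the filters, 0.11 after quantile normalization and 0.27 under division by the median. The filters act on the mean of all 4 arrays, so a gene near background in culture passes them largely through its tumor signal. The near-background values with the filters are set by that construction and do not test the result. The lymphoid, granulocyte and keratinocyte marker lists gave no median with the 60th-percentile filter. Where no construction is named, the cause was not tested.

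Deviations of same-numbered arrays from their group means correlated at r = -0.02. With 2 arrays a group, both same-numbered pairs give the same value by construction and the crossed pairs its opposite (0.02). This cannot show whether the numbers pair the samples. A replicate block gave 7175 called probe sets, 6758 of them among the 7243, and 8 near-background genes called lower, and it changed the call of no gene named here.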

Other observations

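Further genes expressed in culture changed strongly outside the lists described above, and they were chosen after their values were seen. Arginase 1 (Arg1), which splits arginine into ornithine and urea, went from 452 and 485 in culture to 2282 and 2152 in tumors (4.74-fold). The calcium-binding protein gene Ocm went from 439 and 439 to 2575 and 2411 (5.68-fold), and Medag, a gene linked to fat cell differentiation, from 358 and 350.2 to 1865 and 1779 (5.14-fold). Sulf2, which trims sulfate groups from heparan sulfate, rose 4.7-fold, the ectoenzyme gene Enpp1, which makes pyrophosphate, 4.03-fold, and the glycoprotein hormone gene Stc1 3.83-fold. Caspase 1 (Casp1), the protease of inflammasomes, went from 369 and 357 to 1314 and 1246 (3.53-fold), and extracellular superoxide dismutase (Sod3) rose 3.3-fold.

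Among falls outside the lists, the insulin receptor adaptor gene Grb14 went from 675 and 655 to 64.9 and 76.3 (9.42-fold lower) and the receptor phosphatase gene Ptprk from 340 and 304 to 37.1 and 29.6 (9.66-fold lower). Sprr1a, a small proline-rich protein of cornified epithelium and stressed cells, went from 3007 and 2680 to 384 and 368 (7.56-fold lower). The calcium release channel gene Ryr3 went from 1235 and 1211 to 199.6 and 189 (6.29-fold lower).

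By chromosome of the GRCr8 annotation, calls among expressed genes were uneven, a pattern noticed in these data and given as a description. On chromosome 12, 93 of 263 expressed genes rose (35.4%) and 21 fell (7.98%), with a median of 0.18. On chromosome 13, 18 of 213 rose (8.45%) and 81 fell (38%), with a median of -0.16. On chromosome X, 35 of 234 rose (15%) and 84 fell (35.9%), with a median of -0.17. Over all expressed genes 18.4% rose and 24% fell.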
